A study of Mus musculus with 5 samples.

Results

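Voltage-gated calcium channels open when a neuron depolarizes and let calcium into the cell, where it triggers transmitter release, shapes firing and acts on gene expression. Each channel is built around a pore-forming α1 subunit, which sets the channel type. The α2δ subunits sit on the outer face of the membrane and help channels reach the surface and the synapse. The β subunits bind the pore from the cytoplasm and promote its surface expression. In the inner ear, L-type channels drive release from hair cells, while the auditory neurons studied here carry L-, N-, P/Q- and T-type channel genes of their own.

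The 10 subunit genes described here are 5 pore genes, 3 α2δ genes and 2 β genes, taken by name from the 14715 genes of the deposited matrix. The pore genes are Cacna1a (P/Q-type), Cacna1b (N-type), Cacna1c and Cacna1d (both L-type) and Cacna1h (T-type). The others are Cacna2d1, Cacna2d2, Cacna2d3, Cacnb3 and Cacnb4. RNA of each was counted in 1954 sorted neurons from the spiral ganglion of the mouse, which carries sound from the cochlea to the brain. Every animal carried the genotype bhlhb5-Cre/+; Ai14/+, in which Cre switches on the tdTomato reporter. The 2 Control samples carried nothing further, and the 3 CKO samples were also Runx1F/F, so that Cre deletes the transcription factor gene Runx1. Animals of both sexes were taken at postnatal days 30 to 33, and cells were sorted for tdTomato. The same bhlhb5-Cre thus chose the cells and deleted the gene, the deletion dates from embryonic life, and no group carried floxed Runx1 without Cre.

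Levels are UMIs (unique molecular identifiers, 1 per captured RNA molecule) per 10000 of the UMIs in a cell, as a mean over cells. The deposited record ties each cell to a genotype and not to a sample, so there were 1070 Control and 884 CKO neurons in 2 pools, with no replicates and no test between them. A pool cannot separate a difference between genotypes from a difference between samples. Barcode order parts the matrix columns into 5 stretches: stretches 1, 3 and 4 hold CKO cells and stretches 2 and 5 Control cells. No source used here says that a stretch is a sample, so stretch values are printed only to show the spread. Intervals are exact 95% intervals and cover counting error only. Groups of cells are called apart where they differ by at least 1.5-fold on log2((a + 0.05)/(b + 0.05)) and at least 1 of them has a mean of 0.1 or more. Counts come from the 3′ ends of transcripts, so the level of a gene is compared between groups of cells and not with the level of another gene.

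Neurons were parted by 3 genes that are no channel subunits, in order: type II at a Dupd1 level of at least 1, then type Ic at a Lypd1 level of at least 3, then type Ia at a Calb2 level of at least 150, and type Ib for the rest. Type I neurons contact inner hair cells and carry most auditory information, and type II neurons contact outer hair cells. Control held 242 type Ia, 395 type Ib, 314 type Ic and 119 type II neurons. CKO held 384, 216, 132 and 152. The Dupd1 and Lypd1 cuts had 1 and 11 cells within 20% of them, and the Calb2 cut had 177, so types Ia and Ib are ranges of a continuous level. Of the 6 other listed type II markers, 4 (Th, Plk5, Prph and Ngfr) were called higher in type II in both genotypes. Of all genes with a mean of at least 0.1 in type II or type I, 20.4% were called higher in Control and 21.1% in CKO. Th averaged 5.09 in type II and 0.00552 in type I neurons of Control. The remaining 2 listed type II markers, Etv4 and Smad3, were at most 0.0512 in any class, and Smad3 had no UMI in type II of Control. In CKO some markers were less confined to their type I class. Calb1, a type Ib marker, averaged 1.90 in type Ia of CKO against 0.283 in Control. Calb2, itself used to set type Ia, averaged 26.6 in type Ic of CKO against 9.88. Other markers did not go this way. Ttn, also a type Ib marker, was 0.0645 in type Ic of CKO against 0.209 in Control. Pou4f1 and Grm8 stayed highest in type Ic of CKO, at 1.03 and 0.892. Runx1 RNA itself averaged 1.23 in Control and 1.68 in CKO, and since the deleted exons are not given in the sources used here and reads come from the 3′ end, this level does not check the deletion.

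Cells held 10379 to 100856 UMIs. Type II neurons were the shallowest class, with a median of 25326 UMIs in Control and 27102 in CKO, so shares of cells with a UMI are given after each cell was thinned to 10000 UMIs. At least 5 UMIs per 10000 of the listed Schwann cell and satellite glial genes were found in 61.2% of Control and 55.9% of CKO neurons. By class the share was 39.5% in type II and 63.9% in type I of Control, and 40.1% and 59.2% in CKO. Of the 9 glial genes with a mean of at least 0.1 in type II or type I, 3 were called higher in type II and 3 lower in each genotype. Of all genes at such a mean, 40.8% were called in Control and 40.6% in CKO. Apoe was 12.3 in type II and 0.166 in type I of Control. All 11 of the listed glial genes were measured. The neuronal gene Tubb3 averaged 10.7 and 9.30, and the hair cell gene Slc17a8 was near 0, at 0.00345 and 0.00183. Another gene of the hair cell list, Myo7a, was 0.254 in type II and 0.0117 in type I of Control, and 0.299 and 0.00737 in CKO. Pvalb, also on that list, averaged 40.4 in Control and 40.3 in CKO, and Otof was not in the matrix. Of the fibroblast list, Col1a2 was 0.862 in Control and 0.850 in CKO, Dcn was 0.0321 and 0.0443, and Col1a1 was not in the matrix. The part of these genes in the differences between types II and I was not tested. Stretch 4 stood apart from the other CKO stretches in its class shares. It held 19 type Ia, 59 type Ib, 56 type Ic and 23 type II cells, against 167, 82, 48 and 58 in stretch 1 and 198, 75, 28 and 71 in stretch 3. The 2 Control stretches also differed: type Ia was 10.8% of stretch 2 and 32.3% of stretch 5, type Ic 38.4% and 21.9%, and type II 14.9% and 7.99%. Stretch 4 is given beside each result that it moves.

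The genes do not overlap in the genome, though Cacna2d3 and Cacna1d lie near each other. Per GENCODE vM21 on mm10, Cacna2d2 spans chr9:107399612-107529343 on the plus strand, Cacna2d1 spans chr5:15934691-16374511 on the plus strand and Cacna1b spans chr2:24603887-24763152 on the minus strand. Cacnb4 also lies on chromosome 2 (chr2:52428320-52676831, minus strand). Cacna2d3 and Cacna1d are both on chromosome 14, at chr14:28904943-29721864 and chr14:30039939-30491455 on the minus strand. Cacna1a spans chr8:84388440-84640246 on the plus strand, Cacna1c spans chr6:118587240-119196418 on the minus strand, Cacnb3 spans chr15:98630840-98644529 on the plus strand and Cacna1h spans chr17:25374285-25433783 on the minus strand.

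RUNX factors bind DNA at a short core, written TGTGGT or TGCGGT. The 250 bases before the start sites were taken from RefSeq (GRCm38.p6) and searched for both cores on both strands. RefSeq gave 14 such windows for 8 of the 10 genes. A core was found in 4 of the 14, and in 18.6% of all 32851 windows of this length (14.0% for TGTGGT and 5.10% for TGCGGT). Of the genes called higher in type II than in type I in both genotypes, Cacna1b and Cacna2d1 had a single RefSeq window outside the annotated gene, and these windows are printed. Cacna1b was also called apart between genotypes in type Ib, though CKO stretch 4 lay among the Control values there. A link between that difference and a core was not tested. Each window is written 5′ to 3′ on the strand of the gene, with a core in capitals.
Cacna1b, chr2:24763153-24763402, minus strand: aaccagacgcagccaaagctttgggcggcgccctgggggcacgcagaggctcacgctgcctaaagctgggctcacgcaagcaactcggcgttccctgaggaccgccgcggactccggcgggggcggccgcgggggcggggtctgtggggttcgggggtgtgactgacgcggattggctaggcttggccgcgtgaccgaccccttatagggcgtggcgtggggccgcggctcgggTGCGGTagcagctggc
Cacna2d1, chr5:15934441-15934690, plus strand: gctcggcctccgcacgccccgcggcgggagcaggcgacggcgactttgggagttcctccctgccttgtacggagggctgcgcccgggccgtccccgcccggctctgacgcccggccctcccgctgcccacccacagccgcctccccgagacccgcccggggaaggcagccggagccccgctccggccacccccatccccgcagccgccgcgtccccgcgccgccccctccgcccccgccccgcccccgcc
Cacna1b had 1 core, TGCGGT on the gene's own strand, beginning at base 235 of the window. No core was found in the windows of Cacna2d1 and Cacna2d2. The Cacna2d2 window (chr9:107399630-107399879) lies within the gene as GENCODE annotates it, since GENCODE sets an earlier start. Cacna1c, with 2 of its 3 windows, and Cacnb4, with 1 of its 3, held the other cores. A match describes these letters and shows no binding.

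The subunit that differed most between the classes was the α2δ gene Cacna2d2. In type II neurons it averaged 2.33, 1.88 and 2.11 in the CKO stretches 1, 3 and 4, and at 2.07 and 1.83 in the Control stretches 2 and 5. In type I the highest value in any class and stretch was 0.133. The type II and type I values thus did not overlap in either genotype. Pooled type II neurons averaged 1.98 in Control and 2.08 in CKO, against 0.0499 and 0.0891 in type I. By summed UMIs the ratio of type II to type I was 40.7 (34.4 to 48.2) in Control and 25.1 (21.8 to 28.9) in CKO. After thinning, 83.2% of Control type II neurons (interval 75.2 to 89.4%) and 82.9% of CKO type II neurons (76.0 to 88.5%) held a Cacna2d2 UMI. In the type I classes the share ran from 2.23% in Control type Ic to 8.68% in Control type Ia. Of all type II neurons, 4 had no Cacna2d2 UMI at full depth.

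The low Cacna2d2 level of type I neurons is given beside that of the 4 listed type II markers called higher in type II, the class-setting Dupd1 left out. In Control, type I neurons held 2.52% of the type II level of Cacna2d2, against 0.109% for Th, 0.426% for Plk5, 0.0683% for Prph and 7.86% for Ngfr. In CKO the values were 4.27% for Cacna2d2, and 0.0200%, 0.0632%, 0.259% and 8.20% for Th, Plk5, Prph and Ngfr. Cacna2d2 thus lay above the first 3 and below Ngfr in both genotypes, and how much of the type I level is free RNA was not tested. Only 2 type I neurons held 5 or more Cacna2d2 UMIs, and both also had Th, Plk5 or Prph at a level of at least 1, as had 4 type I neurons in all. Among type I classes Cacna2d2 in Control was highest in type Ia at 0.0869, then 0.0433 in type Ib and 0.0297 in type Ic. The stretch values of type Ia lay above those of type Ib, and those of types Ib and Ic overlapped. In CKO the levels were 0.0937, 0.0869 and 0.0789, with overlapping stretches.

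**Figure D1:**
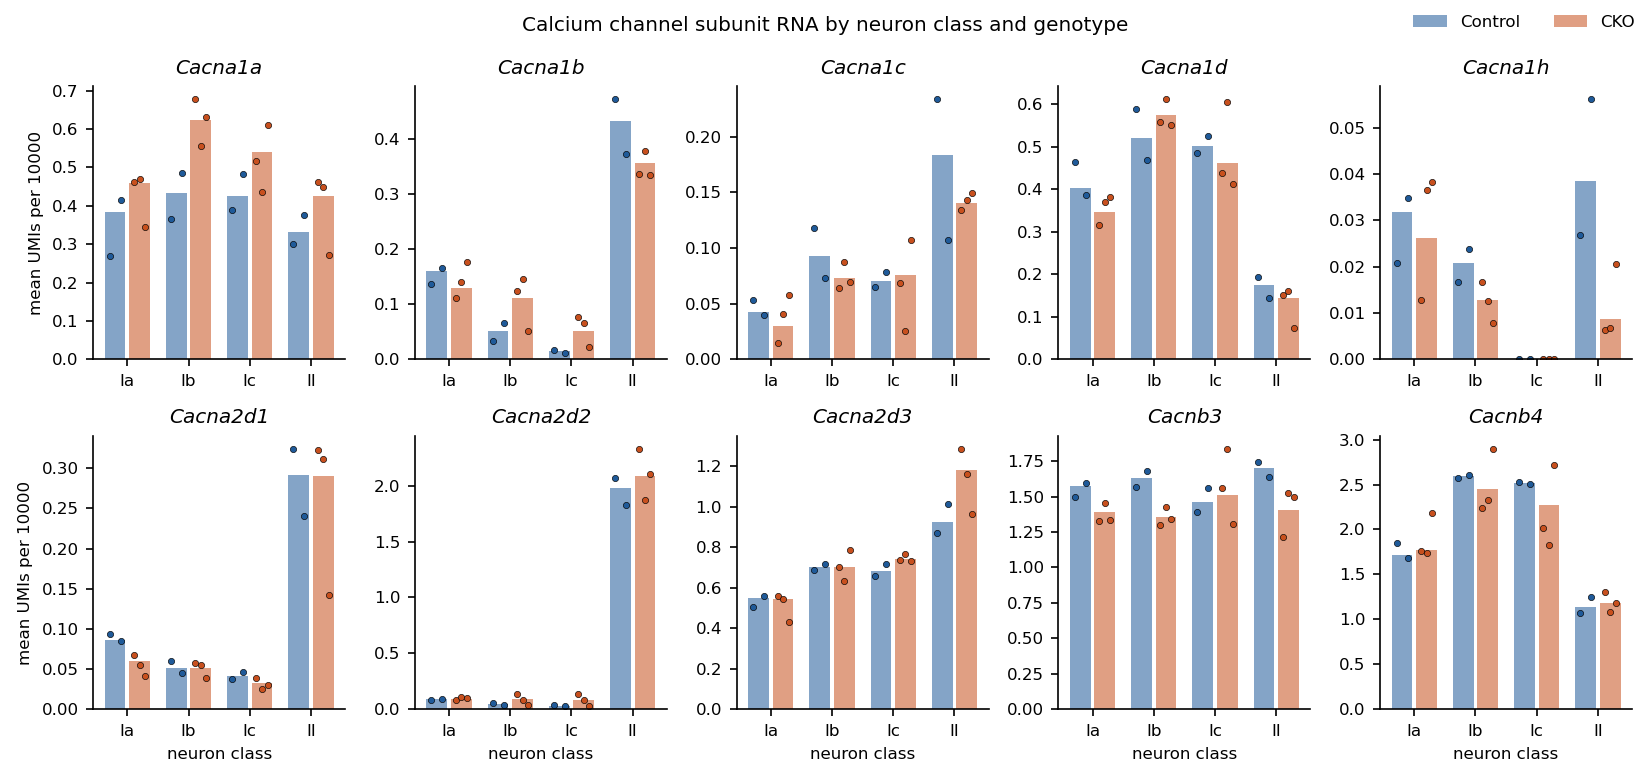
Mean level of each subunit gene by neuron class, in UMIs per 10000 UMIs of a cell on a linear axis from 0. Bars are the pooled mean of Control and of CKO, and points are the column stretches of that genotype. Cacna2d2 stood near 2 in type II and below 0.14 in every type I bar and point, while Cacnb3 was at a like height in all classes.

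Cacna2d1, which encodes another α2δ subunit and is the best known gabapentin target, was also higher in type II. In type II it stood at 0.322, 0.311 and 0.142 for the CKO stretches 1, 3 and 4, and at 0.324 and 0.241 for the Control stretches 2 and 5. All lay above the type I values, whose highest was 0.0932 in type Ia of stretch 2. Stretch 4 gave the lowest type II value, from 23 cells and 10 UMIs. The pooled type II means were 0.291 in Control and 0.290 in CKO, and the UMI ratio to type I was 4.94 (3.82 to 6.35) and 5.72 (4.49 to 7.26). Within type I the Cacna2d1 level moved with glial RNA. Over both genotypes it was 0.0830 in type Ia cells at or above the glial level of 5 and 0.0469 in those below it, 0.0641 against 0.0343 in type Ib, and 0.0525 against 0.0137 in type Ic. In type II it was the other way round, 0.241 against 0.323. The part of glial RNA in the type I values was not tested.

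Cacna2d3, another α2δ gene, was highest in type II at 0.926 in Control and 1.18 in CKO. In CKO its type II values in stretches 1, 3 and 4 were 1.29, 1.16 and 0.966, and in Control stretches 2 and 5 they were 0.869 and 1.01. The stretches of each type I class of the same genotype lay below these. The log2 difference from type I was 0.86 in CKO, past the fold, and 0.46 in Control, within it. Type Ia was the lowest class in both genotypes, at 0.548 and 0.545, below the stretch values of types Ib and Ic, which overlapped each other.

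Among the pore genes, Cacna1b and Cacna1d went in opposite directions between type II and type I. Cacna1b, the N-type pore that serves release at many synapses, averaged 0.336, 0.378 and 0.333 in type II cells of stretches 1, 3 and 4 (CKO), and 0.472 and 0.372 in stretches 2 and 5 (Control). The highest type I value was 0.176, in type Ia of stretch 4. Against pooled type I the Cacna1b UMI ratio was 6.58 (5.29 to 8.16) in Control and 3.20 (2.62 to 3.88) in CKO. Cacna1d, an L-type pore that opens at low voltages, averaged 0.152, 0.160 and 0.0729 in type II cells of CKO and 0.194 and 0.143 in those of Control. Its lowest type I value was 0.316, in type Ia of stretch 1, so the classes did not overlap. The UMI ratio of type I to type II was 2.64 (2.01 to 3.53) in Control and 2.78 (2.15 to 3.67) in CKO. For Cacna1d, types Ib and Ic overlapped and lay above type Ia in both genotypes.

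Cacna1c, the other L-type pore, was higher in type II. It averaged 0.134, 0.143 and 0.150 in the CKO stretches and 0.234 and 0.108 in the Control stretches. The second Control value lay below the highest Control type I value, 0.118 in type Ib of stretch 2. The UMI ratio to type I was 2.53 (1.85 to 3.41) in Control and 3.40 (2.48 to 4.62) in CKO. In Control this call rested on stretch 2: without it the log2 difference of Cacna1c was 0.48, against 0.93 with it. In CKO it was within the fold after thinning, at 0.47 against 0.91. Type Ia had the lowest Cacna1c level of all classes, 0.0429 in Control and 0.0302 in CKO, and its stretches lay below those of the next class. In CKO that next class was type Ib, and the type Ia stretches (0.0147 to 0.0580) overlapped those of type Ic (0.0259 to 0.107).

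Cacna1a, the P/Q-type pore that drives fast release at many central synapses, differed little between classes. It ran from 0.331 in type II to 0.433 in type Ib in Control and from 0.426 in type II to 0.623 in type Ib in CKO, and the stretch values of neighbouring classes overlapped throughout. Type II lay below type I by 0.30 on the log2 scale in Control and by 0.26 in CKO, within the fold.

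Of the β genes, Cacnb4 was lower in type II and Cacnb3 was not apart. Cacnb4, the β subunit whose loss causes the lethargic mouse, averaged 1.07 and 1.25 in type II cells of Control (stretches 2 and 5) and 1.30, 1.08 and 1.18 in those of CKO (stretches 1, 3 and 4). Its lowest type I value was 1.68, in type Ia of stretch 5. The UMI ratio of type I to type II was 1.95 (1.76 to 2.18) in Control and 1.70 (1.55 to 1.86) in CKO. Cacnb3 averaged between 1.36 and 1.70 in every class and genotype. Its log2 difference between type II and type I was 0.12 in Control and 0.00 in CKO, with UMI ratios of 1.09 (0.993 to 1.19) and 0.994 (0.910 to 1.08).

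In all, 9 of the 10 genes reached the level in type II or type I of Control, and 4 of them (Cacna1b, Cacna1c, Cacna2d1 and Cacna2d2) were called higher and 2 (Cacna1d and Cacnb4) lower in type II. Of all 9213 genes at the level, 40.8% were called, 20.4% higher and 20.4% lower. In CKO the same 6 genes and Cacna2d3 were called, 5 higher and 2 lower of 9, against 40.6% of all genes, 21.1% higher and 19.5% lower. Types II and I differ widely, so a call in this comparison is common. How many of all genes lack overlap of stretch values between classes was not counted. Among cells below the glial level of 5 the counts called were again 6 in Control and 7 in CKO. The median log2 difference of the subunit genes was 0.46 in Control and 0.86 in CKO, and that of all genes 0.02 and 0.04. Both genotypes use separate cells, so the directions were seen in 2 pools.

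The makeup of each family differed between the classes in the same way in both pools. Cacna2d2 supplied 61.9% of all α2δ UMIs in Control type II neurons (58.8 to 64.9%) and 57.8% in CKO (55.2 to 60.4%). In type I it supplied 12.4%, 4.66% and 3.47% in types Ia, Ib and Ic of Control and 12.6%, 8.84% and 8.51% in CKO. Cacna2d3 held the greater share of α2δ UMIs in type I, from 75.2% in Control type Ia to 91.0% in Control type Ic, and 29.1% and 33.7% in type II. Of pore UMIs, Cacna1b held 38.2% in Control type II and 32.5% in CKO type II. Its share in the type I classes ran from 1.05% in Control type Ic to 15.2% in Control type Ia. Cacna1d held 15.2% and 13.4% of pore UMIs in type II and at least 34.9% in each type I class. Cacnb4 held 41.1% and 46.3% of the β UMIs in type II, and 52.4 to 64.2% in type I. These shares compare 1 gene across classes. Since capture at the 3′ end differs between genes, they do not give the makeup of the channels themselves.

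**Figure D2:**
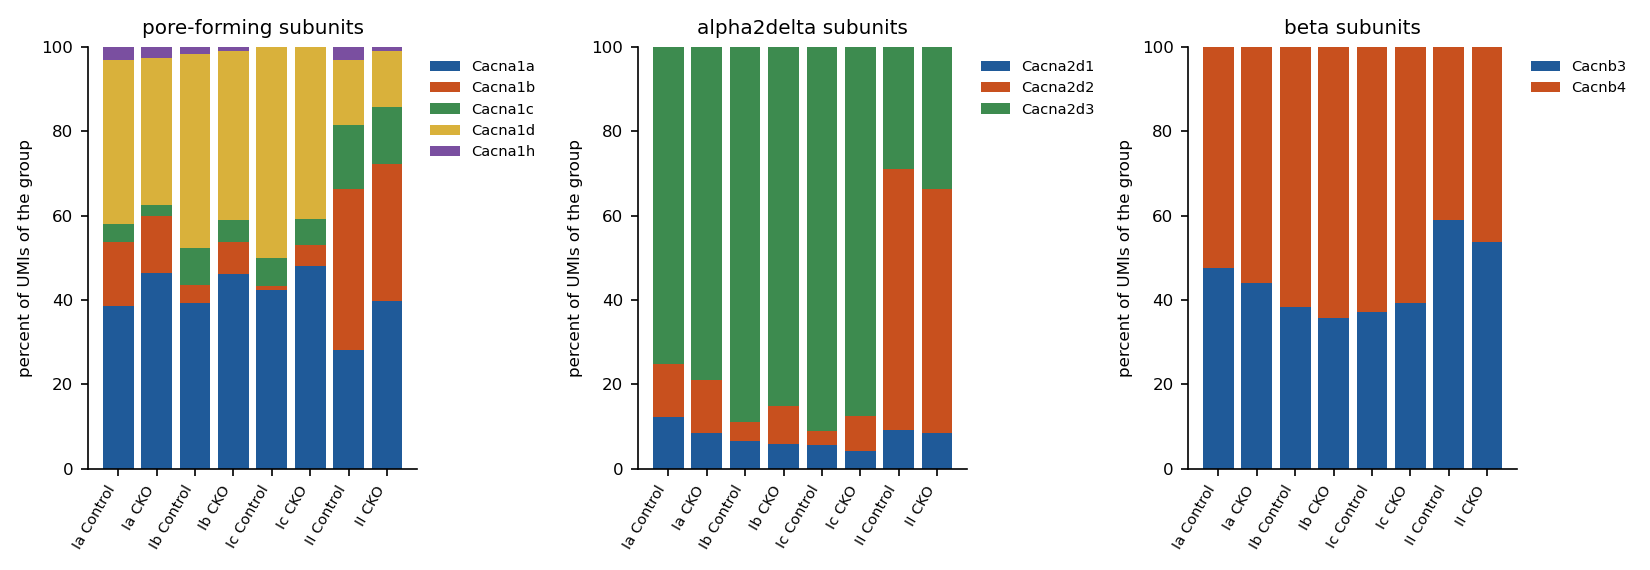
Share of the UMIs of each family (pore, α2δ, β) held by each of its genes, in percent, by class and genotype. In type II, Cacna2d2 takes 61.9% (Control) and 57.8% (CKO) of the α2δ bar and at most 12.6% in any type I class.

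Within type I, Cacna1b had the largest difference between types Ia and Ic among the members at the level. In Control it averaged 0.136 and 0.166 in type Ia of stretches 2 and 5, 0.0333 and 0.0649 in type Ib, and 0.0173 and 0.0113 in type Ic. No 2 neighbouring classes overlapped. Thinned, 12.4% of type Ia (8.52 to 17.2%), 4.81% of type Ib (2.92 to 7.41%) and 0.637% of type Ic neurons (0.0772 to 2.28%) held a Cacna1b UMI. Type Ic held 12 Cacna1b UMIs and type Ia 170, a rate ratio of type Ia to type Ic of 14.6 (8.16 to 28.9). In CKO the type Ia values in stretches 1, 3 and 4 were 0.110, 0.140 and 0.176, the type Ib values 0.124, 0.145 and 0.0516, and the type Ic values 0.0759, 0.0654 and 0.0230. Here the ranges of neighbouring classes overlapped, though type Ib lay above type Ic within each stretch. The rate ratio of type Ia to type Ic was 2.43 (1.67 to 3.66). In type Ic over both genotypes Cacna1b was 0.0348 in cells at or above the glial level and 0.00866 in those below, and the part of glial RNA in it was not tested.

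Cacna1b was the only member called between types Ic and Ia, lower in type Ic in both genotypes, of 6 that reached the level in each. The log2 difference was -1.69 in Control and -0.82 in CKO. Among all genes 8.01% were called in Control (5.21% higher and 2.79% lower in type Ic) and 6.74% in CKO (4.78% higher and 1.96% lower). The CKO call was lost without stretch 4, where the log2 difference of Cacna1b was -0.53, and after thinning, which gave -0.54. Thinning was a single random draw, and the part of depth in this change was not tested. The next largest member difference at the level was Cacnb4, higher in type Ic by 0.54 in Control. There stretches 2 and 5 gave 2.57 and 2.60 in type Ib, 2.53 and 2.50 in type Ic, and 1.85 and 1.68 in type Ia, again with no overlap between neighbours. In CKO the Cacnb4 values of types Ic and Ia overlapped, at 2.02, 1.83 and 2.71 against 1.76, 1.74 and 2.18. The median log2 difference of the members was 0.21 in Control and 0.28 in CKO, and that of all genes 0.06 and 0.05.

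Cacna1h, a T-type pore that opens near resting potential, was too low for a call and yet separated type Ic. No Cacna1h UMI was found among 17472613 UMIs of 446 type Ic neurons. In type Ia, 72 neurons held 84 Cacna1h UMIs. Set against a floor of 3 counts per group, Cacna1h was at least 12.0-fold higher in type Ia than in type Ic in Control and at least 4.95-fold higher in CKO. Without the floor, the exact interval of this ratio begins at 9.29 in Control and 3.88 in CKO. A UMI was also found in 31 type Ib and 14 type II neurons. The type Ia means were 0.0208 and 0.0348 for Control (stretches 2 and 5) and 0.0127, 0.0365 and 0.0382 for CKO (stretches 1, 3 and 4). In type II it was 0.0385 in Control from 11 UMIs and 0.00862 in CKO from 4.

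Because types Ia and Ib meet along a range of Calb2, type I neurons were also parted by their Calb2 level alone, at 10, 50, 150 and 250, over types Ia, Ib and Ic. In Control the Cacna1b level was 0.0224, 0.0280 and 0.0554 in the bins below 150, and 0.164 and 0.154 in the bins above it. In CKO it was 0.0403, 0.0614 and 0.123 below 150, and 0.135 and 0.120 above. In Control the step thus lay between the bin from 50 to 150 (median Calb2 77.2) and the next (median 207). In CKO the bin from 50 to 150, whose median Calb2 was higher at 104, had a Cacna1b level like that of the bins above. Runx1 RNA over the 5 bins was 1.76, 1.87, 1.69, 0.292 and 0.143 in Control and 2.15, 2.35, 2.57, 2.02 and 1.10 in CKO. Cacnb4 was 2.50, 2.67 and 2.48 in the bins of Control below 150, then 1.85 and 1.57. In CKO Cacnb4 was 2.40, 2.62, 2.26, 1.93 and 1.53, so that it was lower at high Calb2 in both. Cacna1d was 0.534 in the lowest and 0.360 in the highest bin of Control, and 0.374 and 0.321 in CKO with 0.583 between 50 and 150. Cacna1h was 0.00222 in the lowest bin and 0.0382 between 150 and 250 in Control.

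**Figure D3:**
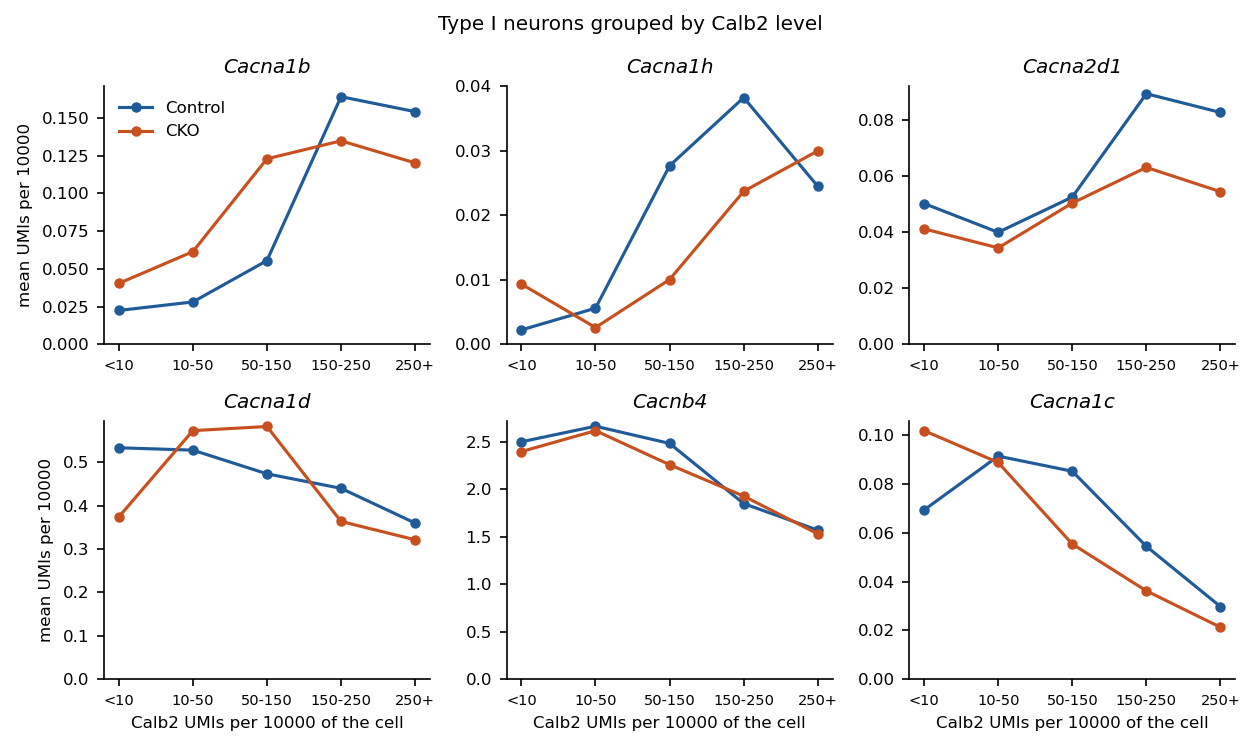
Mean level of 6 subunit genes in type I neurons (vertical axes, mean UMIs per 10000, linear from 0) by bins of Calb2 level (horizontal axes, Calb2 UMIs per 10000), with Control and CKO as separate lines through the pooled means and no error drawn. Cacna1b in Control was at most 0.0554 below a Calb2 level of 150 and at least 0.154 above it, and in CKO it was 0.123 between 50 and 150.

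Between the genotypes, the subunit genes differed little. Over all neurons 7 members reached the level, and 1 of them was called, Cacna2d2, which was higher in CKO. None was called lower. Of all 8646 genes at the level 1.43% were called, 0.706% higher in CKO and 0.729% lower. Its mean was 0.352 and 0.192 for Control (stretches 2 and 5) and 0.466, 0.437 and 0.345 for CKO (stretches 1, 3 and 4), so the genotypes overlapped. The pooled means were 0.432 and 0.264, a log2 difference of 0.62 and a UMI ratio of 1.51 (1.38 to 1.66). Type II neurons, in which Cacna2d2 is high, were 17.2% of CKO and 11.1% of Control neurons. With the CKO classes weighted at their Control shares the log2 difference of Cacna2d2 was 0.19. It was 0.26 without stretch 5 and 0.55 without stretch 1, and within type II it was 0.07. The median log2 difference of the 7 members was 0.07, and that of all genes -0.04.

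Cacna1a was higher in CKO in each class, within the fold. Its log2 difference was 0.28 over all neurons and 0.23, 0.48, 0.31 and 0.32 in types Ia, Ib, Ic and II. In type Ib its values were 0.678, 0.557 and 0.631 in the 3 CKO stretches and 0.366 and 0.485 in the 2 Control stretches, without overlap. There the UMI ratio was 1.41 (1.25 to 1.59), and how many of all genes lack overlap in type Ib was not counted. In the other classes the stretches of the genotypes overlapped. Among cells with little glial RNA the type Ib difference of Cacna1a was 0.68, past the fold.

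In type Ib 1 of 6 members at the level was called between genotypes. This was Cacna1b, higher in CKO, against 1.68% of all genes called, 1.09% higher in CKO and 0.582% lower. In type Ib it stood at 0.0333 and 0.0649 for Control (stretches 2 and 5) and at 0.124, 0.145 and 0.0516 for CKO (stretches 1, 3 and 4), and stretch 4 lay among the Control values. The pooled means were 0.111 and 0.0510, from 84 and 67 UMIs, a log2 difference of 0.68 and a UMI ratio of 2.16 (1.55 to 3.03). Leaving out stretch 2 gave 0.49 for Cacna1b and leaving out stretch 3 gave 0.51, both within the fold, and leaving out stretch 4 gave 0.86. Setting the Calb2 cut at 100 gave 0.50 and at 200 gave 0.55, and thinning gave 0.56, all within the fold. The value thus changed with the Calb2 cut and with thinning, and the part of depth in this was not tested. CKO type Ib neurons had a higher mean Calb2 level, 82.3 against 60.5, and the part of this in the Cacna1b difference was not tested.

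In type Ic, 0 of 5 members at the level were called between genotypes, against 2.22% of all genes, 1.18% higher in CKO and 1.03% lower. Below the level, Cacna1b was 0.0512 in CKO, from 31 UMIs, and 0.0148 in Control, from 12 UMIs, a UMI ratio of 5.24 (2.61 to 11.2). Thinned, 6.06% of CKO type Ic neurons (2.65 to 11.6%) and 0.637% of Control ones held a Cacna1b UMI. Cacna2d2 was 0.0789 in CKO type Ic, from 40 UMIs, and 0.0297 in Control, from 30, a UMI ratio of 2.70 (1.64 to 4.49). For Cacna2d2 the CKO stretches gave 0.133, 0.0853 and 0.0293 and the Control stretches 0.0339 and 0.0237, and the difference without stretch 1 was 0.30 against 0.69 with it. In type Ib, Cacna2d2 was likewise 0.0869 in CKO and 0.0433 in Control, with a UMI ratio of 1.92 (1.30 to 2.82). For Cacna2d2 stretch 4 was within or near the Control range in both types. For Cacna1b in type Ic all CKO stretches (0.0230 to 0.0759) lay above the Control stretches (0.0113 to 0.0173), with stretch 4 the lowest of CKO. How many of all genes lack overlap in type Ic was not counted.

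In type Ia 0 of 6 and in type II 0 of 9 members were called between genotypes, against 0.772% of all genes in type Ia (0.41% higher in CKO and 0.362% lower) and 1.97% in type II (1.02% higher and 0.942% lower). In type Ia the largest log2 difference among the members at the level was that of Cacna1a (0.23), followed by Cacna1b at -0.23. Cacna1b was 0.129 in CKO and 0.159 in Control. Cacna2d1, below the level there, was 0.0596 in CKO and 0.0863 in Control, a log2 difference of -0.31. Its UMI ratio was 0.668 (0.504 to 0.884). Its CKO stretches (0.0407 to 0.0673) lay below its Control stretches (0.0844 and 0.0932). Cacna1c, also below the level, had a UMI ratio of 0.608 (0.3998 to 0.924), with overlapping stretches. In type II Cacna2d3 had the largest difference among the members at the level, 0.33, with a UMI ratio of 1.25 (1.07 to 1.45), and its stretches of the 2 genotypes overlapped. The type II intervals of the UMI ratio ran from 0.904 to 1.12 for Cacna2d2, from 0.888 to 1.17 for Cacnb4 and from 0.757 to 1.33 for Cacna2d1. Below the level, Cacna1h in type II was 0.00862 in CKO and 0.0385 in Control, from 4 and 11 UMIs, a UMI ratio of 0.266 (0.0618 to 0.897). Cacnb3, by contrast, was 0.825 (0.732 to 0.931) of Control in type II, and 0.848 (0.790 to 0.910) in type Ib. In type Ia it was 0.8902 (0.838 to 0.946) of Control. All were within the fold. In these classes the CKO stretches of Cacnb3 lay below its Control stretches. The highest CKO and lowest Control values were 1.53 and 1.64 in type II, 1.43 and 1.57 in type Ib, and 1.455 and 1.497 in type Ia. How many of all genes lack overlap in these classes was not counted. In type Ic the Cacnb3 ratio was 1.02 (0.938 to 1.11), and its stretches overlapped.

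**Figure D4:**
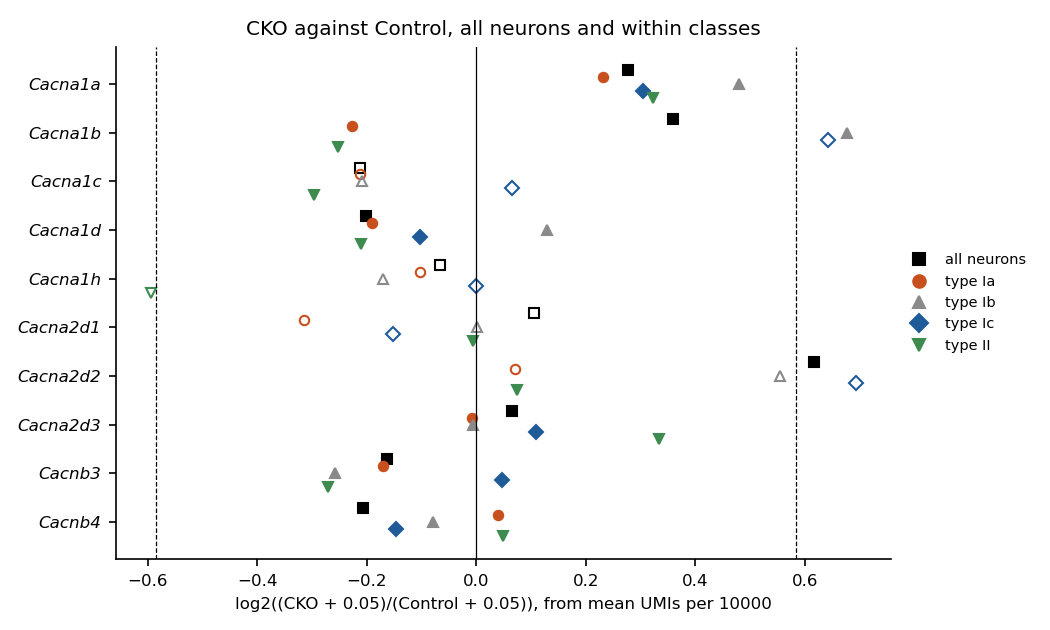
Log2 difference between CKO and Control of each subunit gene, over all neurons and within each class. Open symbols are genes below a mean of 0.1 in both groups (Cacna1h in type Ic had 0 UMIs in both and stands at 0), and dashed lines mark 1.5-fold. Only Cacna2d2 over all neurons (0.62) and Cacna1b in type Ib (0.68) lie past the lines among filled symbols.

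The genes whose pattern was nearest to each member were found over 19 profiles, 1 for each class and stretch with at least 20 cells, by Pearson's r of log2(mean + 0.05) among 3558 genes. Profiles of a genotype share samples, and type II sets much of the spread, so r is a description. Nearest to Cacna2d2 were Hpcal1 (r = 0.991), a calcium-binding protein of the visinin family, Lin7a (0.988), a synaptic scaffold protein, and Tmem38a (0.986), an ion channel of intracellular calcium stores. Nearest to Cacna1d were Ptprs (0.970), Tmem63b (0.965) and Kcns1 (0.962), and nearest to Cacnb4 were Pdgfa (0.968), Atxn1 (0.962) and Kif5a (0.954). Cacna2d1 was nearest to Sar1b (0.965), Acadl (0.957) and Nav1 (0.955), and Cacna1b to Fam63b (0.945), Ctsb (0.938) and Zfhx3 (0.932). For Cacna2d3 they were H3f3b (0.938), Hif1a (0.917) and Limch1 (0.916), and for Cacna1c Kdm5b (0.893), Ankrd12 (0.889) and Srek1 (0.885). The flat or sparse genes had no close match: the highest r was 0.838 for Cacna1a (Sec62), 0.794 for Cacnb3 (Dazap2) and 0.759 for Cacna1h (Sept3). Among the members, r was 0.928 between Cacna2d1 and Cacna2d2, 0.900 between Cacna1b and Cacna2d2 and 0.860 between Cacna1d and Cacnb4. It was -0.914 between Cacna2d2 and Cacnb4 and -0.918 between Cacna1b and Cacnb4.

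Other genes of calcium entry and handling were read from 3 lists. Of 16 other channel genes 9 were in the matrix and 5 reached the level between types II and I of Control, with 2 called higher in type II and 2 lower. Cacna1g, a T-type pore, was 0.177 in type II and 0.00110 in type I, and Cacng5 was 1.17 against 0.0529. Cacng2 (stargazin, which regulates AMPA receptors) was 0.00348 against 0.756, and the β gene Cacnb2 was 0.119 against 0.204. Of 16 channel partners 15 were present and 9 reached the level, with 1 higher, the release-site protein gene Rims2 (1.45 against 0.634), and 4 lower. Among the lower ones were the calcium sensor Cabp1 (log2 difference -2.52) and Kcnma1 (-1.60), the large calcium-activated potassium channel. The background is the 40.8% given above. In CKO 5 of the other channel genes reached the level, with 2 called higher in type II and 1 lower. Of the channel partners 9 reached it in CKO, with 1 higher and 4 lower. The background there is 40.6% of all genes.

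Of 20 genes of calcium clearance and stores 18 were present. Between types II and I of Control 14 reached the level, with 4 higher in type II and 6 lower. Of all genes 40.8% were called there, 20.4% higher and 20.4% lower. The plasma membrane pump Atp2b4 was 0.529 in type II and 0.00380 in type I, while Atp2b2, of the same family, was 1.09 against 4.47. The ryanodine receptor Ryr2, a store release channel, was 0.0121 against 0.797, and Ryr3 was at 0 UMIs in type II of Control against 0.117 in type I. The store pump Atp2a2 was 2.08 against 5.67. In CKO 13 genes of this list reached the level, with 4 called higher in type II and 5 lower, against 40.6% of all genes. Between genotypes 1 of 13 such genes at the level was called over all neurons, Ryr3, at 0.0338 in CKO and 0.104 in Control, against 1.43% of all genes (0.729% lower in CKO). Type Ic was 29.3% of Control and 14.9% of CKO neurons, and the part of class shares in the Ryr3 difference was not tested. In type Ib 1 gene of this list was called, lower in CKO, against 1.68% of all genes (0.582% lower). None was called in types Ia, Ic and II, against 0.772%, 2.22% and 1.97% of all genes. None of the other channel genes or partners was called between genotypes in any class. Between types Ic and Ia of Control, Ryr3 (log2 difference 1.74), Ryr2 (1.14) and Stim2 (0.65) were higher in type Ic, and the exchangers Slc8a1 (-1.04) and Slc24a2 (-0.76) and the receptor Itpr1 (-0.60) were lower, of 14 at the level, against 8.01% of all genes (5.21% higher and 2.79% lower).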

How the data were processed

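RNA was counted per cell with a 3′ 10x assay (v3) in sorted mouse neurons. Cell Ranger, Seurat and the build mm10 are named, with no versions, in the submitters' processing notes. The authors deposited 1 matrix in natural log units, ln(1 + 100000 × UMIs / cell total), as settled from the values, and a record of other values that gives each cell's genotype. UMIs were recovered from the deposited natural log values, 100% whole within 0.01. Samples 4 and 5 (Control) and 4, 5 and 6 (CKO) could not be told apart among the cells, and no test was run.

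Levels, ratios with conditional binomial intervals, shares with Clopper-Pearson intervals and counts with Poisson intervals were computed with Python 3.11.15, numpy 2.4.6, pandas 2.3.3 and scipy 1.17.1, and plots drawn with matplotlib 3.10.9. Each cell was thinned with a fixed seed. The steps were tested on simulated data. No doublet caller was run. 3 cells passed more than 1 class cut, and cells were matched by column position, as 1 barcode was found in cells of Control and of CKO. All deposited cells were kept.

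All members are named. For each, the 3 genes nearest in pattern at a mean of at least 0.5 are named, and of each other list up to 6 genes with the largest difference. Some genes that this rule names are not reported here. Members, lists and cuts were chosen with earlier results of these data known. Alternatives were other pseudocounts, level filters, folds and class cuts, summed UMIs, thinning, cells with little glial RNA and each stretch left out. Chosen after seeing the data were equal stretch weights, CKO at Control class shares, and leaving out cells past more than 1 cut or type I cells with type II genes.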

Additional observations from a re-analysis of the deposited data

How the results depend on the processing

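Over 286 alternative values of the 17 called member differences, all 286 kept their direction and 265 stayed past 1.5-fold, and 12 of the 17 did so in every alternative. Counts of called members moved as follows. Over all neurons the genotypes had 1 called member, and 0 with a pseudocount of 0.2, a level of 0.5, summed UMIs, thinning, little glial RNA, a fold of 2, equal stretch weights or Control class shares, and 0 to 1 with a stretch left out. In type Ia 0 became 0 to 1 with a stretch left out. In type Ib 1 became 0 with a pseudocount of 0.2, a level of 0.5, summed UMIs, a Calb2 cut of 100 or a fold of 2, 3 with little glial RNA, and 0 to 2 with a stretch left out. After thinning and at a Calb2 cut of 200 the count was again 1, but Cacna1b was no longer called. In type Ic 0 became 2 without a level filter, 1 with little glial RNA and 0 to 1 with a stretch left out. In type II 0 became 1 without a level filter and 2 after thinning, and stayed 0 with a stretch left out. Between types II and I, 6 in Control became 2 at a level of 0.5, 5 with a pseudocount of 0.2 or a fold of 2, and 5 to 6 with a stretch left out. The 7 in CKO became 3 at a level of 0.5, 4 at a fold of 2 and 6 with a pseudocount of 0.2 or thinning. Between types Ic and Ia, 1 in Control became 3 without a level filter, 0 at a level of 0.5, and 2 after thinning, with little glial RNA or at a Calb2 cut of 200. The 1 in CKO became 3 without a level filter, 2 with little glial RNA and 0 with a pseudocount of 0.2, a level of 0.5, thinning or a fold of 2, and 0 to 2 with a stretch left out. The cause was not tested beyond the alternatives' own construction. No paired analysis was possible because cells cannot be tied to samples and no test was run. Depth limits Cacna1h in every class and Cacna1b, Cacna2d1 and Cacna2d2 in type I, which rest on 12 to 249 UMIs in single classes and genotypes.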
